A study of Mus musculus with 20 samples.

Results

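The 36 genes described here make up the glutathione and thioredoxin antioxidant systems and their regulator NRF2. They were chosen by symbol, with earlier results of these data known, and all 36 were found among the 43629 genes of the table. They hold 5 genes of glutathione synthesis and recycling (Slc7a11, Gclc, Gclm, Gss, Gsr), 5 glutathione peroxidases (Gpx1, Gpx3, Gpx4, Gpx7, Gpx8) and 7 glutathione transferases (Gstm1, Gstm5, Gstp1, Gsta4, Gstk1, Mgst1, Mgst3). The others are 6 genes of the thioredoxin system (Txn1, Txn2, Txnrd1, Txnrd2, Txnip, Srxn1), 6 peroxiredoxins (Prdx1 to Prdx6), 3 superoxide dismutase and catalase genes (Sod1, Sod2, Cat), and Nfe2l2, Keap1, Nqo1 and Hmox1. RNA came from mouse spinal cord nuclei that a flow cytometer had separated by NeuN, a protein found in the nuclei of most neurons. The mice had experimental autoimmune encephalomyelitis (EAE), a T cell driven inflammation of brain and spinal cord that serves to model multiple sclerosis, or were healthy. Groups were NeuN-positive nuclei of EAE mice at day 15 after active immunization, NeuN-positive nuclei of healthy mice, NeuN-negative nuclei of EAE mice at day 15, and NeuN-negative nuclei of healthy mice, with 5 libraries each. Strain, sex, age, antigen and adjuvant, and whether healthy mice were injected, are not given in the labels. The labels do not say that the 5 libraries of a group come from separate mice, so p-values measure only the spread between libraries.

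Glutathione is a cysteine-containing tripeptide that peroxidases use to reduce hydrogen peroxide and lipid peroxides and that transferases attach to reactive compounds. Thioredoxin is a small protein that hands electrons to the peroxiredoxins and is itself recharged by thioredoxin reductase from NADPH. NRF2, encoded by Nfe2l2, is a transcription factor held down by KEAP1, which marks it for degradation; electrophiles and oxidants release it, and it then binds antioxidant response elements beside many genes of both systems. In brain and spinal cord, NRF2 activity is known to be much stronger in astrocytes than in neurons.

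Library totals were 7072200 to 18686997 counts in EAE NeuN-positive and 12076860 to 30499828 in healthy NeuN-positive nuclei, and 3149209 to 15525441 in EAE NeuN-negative and 8336330 to 37689267 in healthy NeuN-negative nuclei. Levels are given as CPM, normalised for library size and composition by TMM across all 20 libraries, and always in the order of replicates 1 to 5. Mitochondrially encoded transcripts, which come from cytoplasm rather than nuclei, took a median of 1.22% of counts (1.08 to 9.35%) in EAE and 0.302% (0.197 to 3.003%) in healthy NeuN-positive libraries, and a median of 7.94% (2.18 to 14.6%) in EAE and 1.44% (0.367 to 4.51%) in healthy NeuN-negative libraries. Of the NeuN-positive libraries, EAE 2, EAE 4 and healthy 3 held over 2%. The NeuN-negative libraries of these numbers held 14.6%, 9.83% and 4.51%, the highest of their groups, and the other EAE NeuN-negative libraries and healthy NeuN-negative 4 were also over 2%. Libraries stood apart within their groups: EAE NeuN-positive 2 was the highest of its group for 25 of the 36 genes, EAE NeuN-negative 1 for 22 and healthy NeuN-negative 5 for 25, and healthy 3 was the lowest for 19 genes in NeuN-positive and for 22 in NeuN-negative nuclei.

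Markers of other cells moved with EAE in the NeuN-positive nuclei. The summed level of 8 monocyte and macrophage markers was 283 to 1788 CPM in EAE and 3.72 to 23.4 CPM in healthy NeuN-positive libraries, and 7 of the 8 were called higher by the test used for the genes below. Microglia markers summed to 94.4 to 186.8 CPM in EAE and 22.5 to 41 CPM in healthy NeuN-positive libraries, with 3 of 7 tested called higher, and T cell markers to 20 to 74.5 CPM in EAE and 4.91 to 13.7 CPM in healthy ones, with 5 of 5 tested called higher. Fibroblast and pericyte markers were called higher for 4 of 5, neutrophil markers for 4 of 5 tested and oligodendrocyte markers for 2 of 9. Endothelial markers were called higher for 1 of 6 and B cell markers for 0 of 2 tested. Oligodendrocyte precursor markers were called lower for 1 of 4. Of the 8 astrocyte markers 2 were called higher (Gfap and Sox9), and log2 fold changes of the 8 ran from −0.98 to 1.72. Over all genes tested in NeuN-positive nuclei, 6.55% were called higher in EAE and 3.68% lower. The 10 neuron markers summed to 17828 to 26449 CPM in EAE and 18761 to 23911 CPM in healthy NeuN-positive libraries, with 1 called lower, and the NeuN-negative libraries held 841 to 2670 CPM of them in EAE and 1101 to 3248 CPM in healthy mice. In NeuN-negative nuclei, 8 of 8 monocyte and macrophage, 8 of 8 T cell and 5 of 5 tested neutrophil markers were called higher in EAE. Called higher as well were 4 of 4 B cell and 4 of 5 fibroblast and pericyte markers. Of microglia markers 1 of 8 was called higher (median log2 fold change 0.08), of endothelial markers 1 of 6 and of neuron markers 0 of 10. Called lower were 4 of 9 oligodendrocyte and 3 of 4 oligodendrocyte precursor markers. The 8 astrocyte markers, of which 1 was called lower, summed to 816 to 2531 CPM in EAE and 1614 to 3234 CPM in healthy NeuN-negative libraries, with a median log2 fold change of −0.74. Over all genes tested in NeuN-negative nuclei, 15.1% were called higher in EAE and 12.6% lower. Of all 83 markers, Cxcr2 in healthy NeuN-positive nuclei was the sole case at 0 in every library of a group. The highest monocyte and macrophage sum of the NeuN-positive libraries was in EAE 2, the library that was also the highest for most of the 36 genes. EAE 2 also held the lowest neuron sum of these libraries. Oligodendrocyte markers summed to 97753 CPM in NeuN-positive EAE 2, 49870 CPM in EAE 4 and 44256 CPM in healthy 3, the libraries with over 2% mitochondrial counts. The other NeuN-positive libraries held 3543 to 12523 CPM of oligodendrocyte markers. The part of these cells in the results below was not tested, and in such bulk samples fewer cells of a type and less RNA per cell cannot be told apart.

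**Figure D1:**
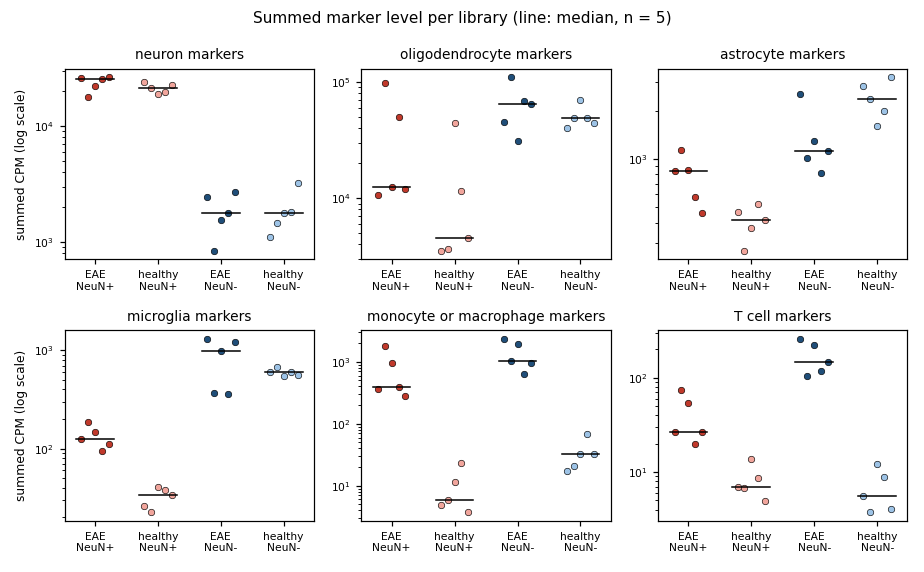
Summed CPM of 6 lists of cell type markers (log scale) in each library of the 4 groups, with a line at the median of 5 libraries. Monocyte and macrophage markers were at 283 to 1788 CPM in EAE NeuN-positive libraries and at 3.72 to 23.4 CPM in healthy ones, while neuron markers overlapped between EAE and healthy in both sorts.

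In NeuN-positive nuclei, 9 of the 36 genes were higher in EAE than in healthy mice and 0 were lower (edgeR quasi-likelihood test, Benjamini-Hochberg adjusted p under 0.05 over all 16675 genes tested). Over all genes tested, 6.55% were called higher and 3.68% lower. The 9 were Txnip, Hmox1, Mgst1, Slc7a11, Txn1, Nfe2l2, Gpx1, Prdx6 and Prdx1, and they came from 6 of the 7 functional groups. The median log2 fold change of the 36 genes was 0.29, against −0.03 over all genes tested, and 12 of the 36 (33.3%) had an unadjusted p under 0.05, against 28.9% of all genes tested. For 8 of the 36 (22.2%), all of them called, every EAE library was above every healthy library, which held for 5.16% of all genes tested. Leaving out EAE 2, EAE 4 and healthy 3, the NeuN-positive libraries with over 2% mitochondrial counts, gave 8 higher genes and 1 lower. That setting was chosen after seeing the data, and in it 7.21% of all genes tested were called higher and 1.83% lower.

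**Figure D2:**
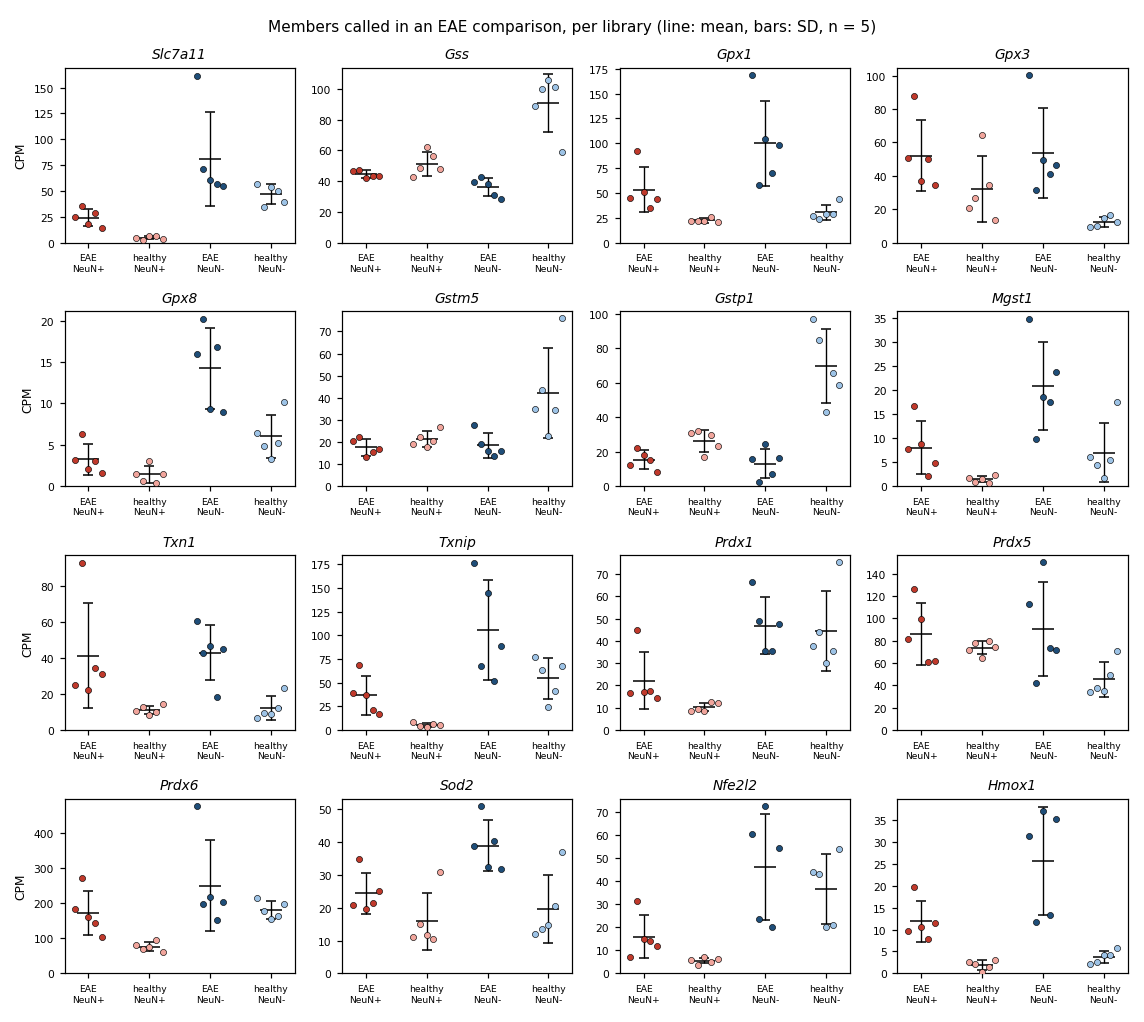
CPM in each library of the 4 groups for the genes called in NeuN-positive nuclei, in NeuN-negative nuclei or in both. Lines show the mean and bars the SD of 5 libraries. Txnip, Slc7a11 and Hmox1 in NeuN-positive nuclei showed no overlap between EAE and healthy libraries, with EAE the higher, and Gstp1 and Gss in NeuN-negative nuclei no overlap with EAE the lower.

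Nfe2l2 (chr2:75675513-75704641, GRCm38), the gene of NRF2, was at 7.13, 31.6, 14.9, 14.1 and 11.9 CPM in EAE NeuN-positive libraries, against 6.04, 3.86, 7.05, 4.999 and 6.102 CPM in healthy ones. All EAE libraries lay above all healthy libraries, although the lowest EAE value was close to the highest healthy one, and EAE 2 stood highest. On the log2 scale the difference was 1.61 ± 0.39 (SE; edgeR adjusted p = 0.02096), a 3.04-fold higher level. The call was lost without healthy NeuN-positive 2 (adjusted p = 0.0658) or healthy NeuN-positive 4 (adjusted p = 0.0534) and was kept without EAE 2, EAE 4 and healthy 3, where the value was 1.23. Keap1, whose protein holds NRF2 down, was at 97.9, 122, 87.03, 159 and 98.9 CPM in EAE and 69.4, 68.4, 124, 104 and 44.4 CPM in healthy NeuN-positive libraries. Healthy 3 and healthy 4 lay within the EAE range and the other healthy libraries below it. The log2 fold change of 0.54 ± 0.30 was not called (edgeR adjusted p = 0.243).

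Hmox1 (chr8:75093621-75100589, GRCm38) encodes heme oxygenase, which breaks heme down to biliverdin, iron and carbon monoxide and is a well known NRF2 target. It was at 9.62, 19.7, 10.6, 7.77 and 11.5 CPM in EAE NeuN-positive libraries, against 2.597, 2.14, 0.298, 1.51 and 3.12 CPM in healthy ones. The groups did not overlap, and healthy 3 stood well below the other healthy libraries. Its log2 fold change was 2.70 ± 0.49 (edgeR adjusted p = 0.00293), a 6.48-fold higher level, and it was 2.28 without EAE 2, EAE 4 and healthy 3. Nqo1, a quinone reductase and another NRF2 target, was at 2.85, 1.42, 2.49, 5.61 and 1.64 CPM in EAE and 3.65, 3.15, 1.79, 3.22 and 2.45 CPM in healthy NeuN-positive libraries. The groups overlapped at a low level, and the log2 fold change of 0.05 ± 0.47 was not called (edgeR adjusted p = 0.951).

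Slc7a11 (chr3:49892526-50443614, GRCm38) encodes the exchanger that imports cystine, the source of cysteine for glutathione, and was the called gene of glutathione synthesis. It was at 24.3, 34.9, 18.4, 28.5 and 13.6 CPM in EAE NeuN-positive libraries, against 4.79, 2.76, 6.75, 6.64 and 3.12 CPM in healthy ones. The lowest EAE library was above the highest healthy library by about a factor of 2. The log2 fold change was 2.41 ± 0.38 (edgeR adjusted p = 0.00101), a 5.32-fold higher level. Gclc, the catalytic subunit of the rate-limiting enzyme of glutathione synthesis, was at 29.2, 18.8, 43.8, 16.5 and 36.6 CPM in EAE and 62.3, 54.9, 15.4, 30.3 and 104 CPM in healthy NeuN-positive libraries. Its regulatory subunit Gclm was at 17.1, 9.63, 21.9, 13.1 and 18.04 CPM in EAE and 23.3, 22.9, 11.4, 15.3 and 36.1 CPM in healthy libraries. Healthy 5 was the highest and healthy 3 the lowest of the healthy libraries for both subunits, and EAE libraries lay between them for all values except Gclm in EAE 2. The log2 fold changes were −0.79 ± 0.41 for Gclc (edgeR adjusted p = 0.223) and −0.36 ± 0.31 for Gclm (adjusted p = 0.465), neither called. Glutathione synthetase Gss, at −0.12 on the log2 scale, and glutathione reductase Gsr, at −0.09, were not called either.

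Among the glutathione peroxidases, Gpx1 (chr9:108338903-108340343, GRCm38), the main cytosolic enzyme, was at 44.98, 92.03, 50.8, 34.5 and 43.7 CPM in EAE NeuN-positive libraries, against 21.2, 21.9, 21.6, 26.02 and 20.6 CPM in healthy ones. The healthy libraries were close together, all below the EAE libraries, of which EAE 2 stood apart. On the log2 scale the difference was 1.36 ± 0.28 (edgeR adjusted p = 0.00747), and without EAE 2, EAE 4 and healthy 3 it was 1.17. The secreted enzyme Gpx3 at 0.79, Gpx4, which reduces lipid peroxides in membranes, at 0.01, and the endoplasmic reticulum enzymes Gpx7 at 0.36 and Gpx8 at 1.28 on the log2 scale were not called. Gpx3 was at 34.5 to 87.6 CPM in EAE and 13.7 to 64.6 CPM in healthy NeuN-positive libraries, the highest healthy value being that of healthy 3. Without that library Gpx3 was called, at 1.23 (edgeR adjusted p = 0.0306).

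Of the 7 transferases, Mgst1 (chr6:138140316-138156755, GRCm38), a membrane-bound enzyme that also has peroxidase activity, was called. It was at 7.77, 16.7, 8.703, 2.01 and 4.72 CPM in EAE NeuN-positive libraries, against 1.65, 0.844, 1.59, 0.753 and 2.24 CPM in healthy ones. The groups overlapped, since EAE 4 was below healthy 5, and all other EAE libraries were above all healthy ones. Its log2 fold change was 2.59 ± 0.55 (edgeR adjusted p = 0.00954). The other 6 lay between −0.69 for Gstp1 and 0.61 for Mgst3 on the log2 scale. Gstp1, a cytosolic transferase, was at 12.3, 22.4, 18.3, 15.2 and 8.07 CPM in EAE and 30.7, 31.9, 16.8, 29.5 and 23.2 CPM in healthy NeuN-positive libraries. EAE 2 and EAE 3 were above healthy 3, and every EAE library was below the other 4 healthy ones. It was the gene called lower without EAE 2, EAE 4 and healthy 3, at −1.04 (edgeR adjusted p = 0.0491), and was not called with all libraries (adjusted p = 0.15). Transferases of the mu and pi classes have close paralogs, and how the authors' counting treated reads that match several of them is not given in the labels.

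Txnip and Txn1 were the called genes of the thioredoxin system. Txnip (chr3:96557957-96561883, GRCm38), the thioredoxin-interacting protein, binds thioredoxin and inhibits it, and also restrains glucose uptake. It was at 38.5, 68.99, 37.3, 21.1 and 16.4 CPM in EAE NeuN-positive libraries, against 7.84, 3.897, 2.68, 5.75 and 4.63 CPM in healthy ones. The lowest EAE library was above the highest healthy one by about a factor of 2, and the log2 fold change of 2.98 ± 0.42 (edgeR adjusted p = 0.000507), or 7.89-fold, was the largest of the 36 genes in these nuclei. Txn1 (chr4:57943373-57956411, GRCm38), cytosolic thioredoxin itself, was at 25.02, 92.7, 22.2, 34.5 and 31.2 CPM in EAE NeuN-positive libraries, against 10.4, 12.5, 8.44, 10.1 and 14.4 CPM in healthy ones. EAE 2 was far above the other EAE libraries, and these were still all above the healthy ones. The log2 fold change was 2.0 ± 0.40 (edgeR adjusted p = 0.005903), and it was 1.26 (adjusted p = 0.00925) without EAE 2, EAE 4 and healthy 3. Txnip overlaps the antisense gene Gm15441 in the annotation, and the use of strand in counting is not given in the labels.

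Txnrd1 and Srxn1, both known NRF2 targets, were not called. Txnrd1, cytosolic thioredoxin reductase, was at 35.0, 16.3, 50.9, 24.6 and 25.8 CPM in EAE and 57.2, 61.9, 18.6, 42.7 and 59.8 CPM in healthy NeuN-positive libraries. Srxn1, sulfiredoxin, which rescues overoxidised peroxiredoxins, was at 80.4, 44.8, 62.96, 77.4 and 51.4 CPM in EAE and 69.3, 75.5, 60.2, 73.6 and 66.6 CPM in healthy libraries. For Srxn1 the healthy libraries were close together and the EAE libraries spread to both sides of them, and for Txnrd1 healthy 3 lay below 4 of the EAE libraries. In log2 units the fold changes were −0.57 ± 0.33 for Txnrd1 (edgeR adjusted p = 0.273) and −0.04 ± 0.21 for Srxn1 (adjusted p = 0.916). The mitochondrial genes Txn2 at 0.60 and Txnrd2 at 0.27 were not called either, except that Txn2 was called without EAE NeuN-positive 3, at 0.72 (adjusted p = 0.0225).

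**Figure D3:**
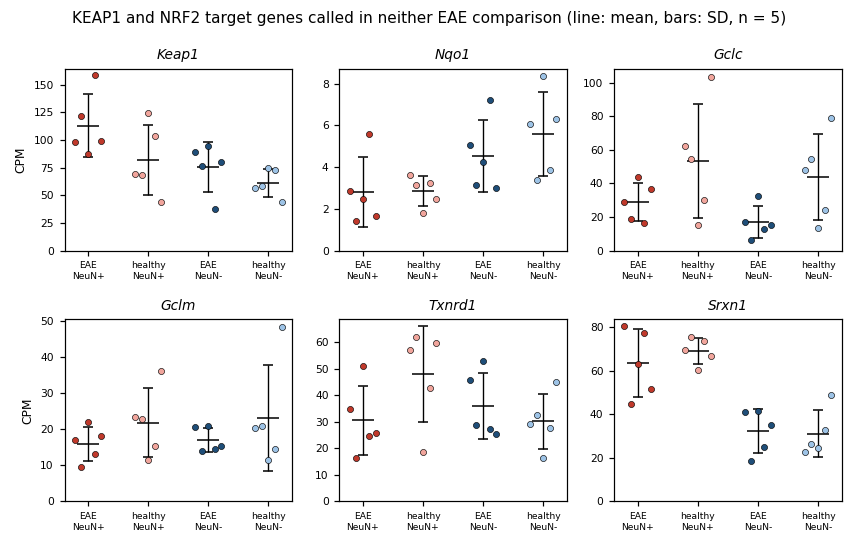
CPM of Keap1 and of 5 genes known as NRF2 targets that were called in neither EAE comparison, with the mean and SD of 5 libraries in each of the 4 groups. EAE and healthy libraries overlapped for every one of these genes in both sorts, and Srxn1 was higher in NeuN-positive than in NeuN-negative nuclei in both EAE and healthy mice.

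Of the peroxiredoxins, which reduce peroxides with thioredoxin or glutathione, Prdx6 (chr1:161240112-161251219, GRCm38) was at 182, 270.3, 161, 145 and 103 CPM in EAE NeuN-positive libraries, against 82.2, 68.3, 75.3, 95.6 and 61.1 CPM in healthy ones. The lowest EAE library was slightly above the highest healthy one. On the log2 scale the difference was 1.27 ± 0.27 (edgeR adjusted p = 0.00898). Prdx1 (chr4:116685544-116700822, GRCm38), an abundant cytosolic member and NRF2 target, was at 16.4, 44.8, 17.2, 17.3 and 14.3 CPM in EAE and 8.59, 9.35, 8.54, 12.7 and 12.1 CPM in healthy NeuN-positive libraries. EAE 2 was more than 2 times any other NeuN-positive library, and the other EAE libraries were slightly above the healthy ones. The log2 fold change of 1.21 ± 0.35 (edgeR adjusted p = 0.0445) dropped to 0.73 without EAE NeuN-positive 2 (adjusted p = 0.0764), and the call was also lost without EAE 1, EAE 4 or any single healthy library (adjusted p = 0.0545 to 0.113). Prdx2 of the cytosol, Prdx3 of mitochondria, Prdx4 of the endoplasmic reticulum and Prdx5 lay between 0.16 and 0.38 on the log2 scale and were not called. Mitochondrial superoxide dismutase Sod2 was at 0.72 (edgeR adjusted p = 0.167) and was called without healthy NeuN-positive 5, at 1.08 (adjusted p = 0.0302). Cytosolic superoxide dismutase Sod1 at −0.17 and catalase at 0.01 were not called.

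EAE and healthy NeuN-positive libraries overlapped for each of the 7 genes that were called in NeuN-negative nuclei alone, which were Gss, Gstp1, Gstm5, Gpx3, Gpx8, Prdx5 and Sod2. Gss was at 46.8, 47.4, 41.8, 43.4 and 43.2 CPM in EAE and 42.6, 48.4, 62.1, 56.4 and 47.6 CPM in healthy NeuN-positive libraries, and Gstm5 at 20.5, 22.1, 12.98, 15.2 and 16.7 CPM in EAE and 19.1, 22.3, 17.9, 20.5 and 26.8 CPM in healthy ones. For Gss healthy 1 was within the EAE range and the other healthy libraries were above every EAE library, and for Gstm5 healthy 2 and healthy 5 were above every EAE library. Gpx3 was at 50.7, 87.6, 36.8, 50.3 and 34.5 CPM in EAE and 20.5, 26.7, 64.6, 34.2 and 13.7 CPM in healthy NeuN-positive libraries, and Gpx8 at 3.14, 6.31, 2.09, 3.02 and 1.57 CPM in EAE and 1.45, 0.649, 3.08, 0.411 and 1.51 CPM in healthy ones. For Gpx8 healthy 3 was the sole healthy library inside the EAE range, and for Gpx3 healthy 3 was above 4 of the EAE libraries and the other healthy libraries were below all of them. Prdx5 was at 81.4, 127, 99.1, 60.8 and 61.4 CPM in EAE and 71.9, 78.03, 64.7, 79.3 and 74.03 CPM in healthy NeuN-positive libraries, and Sod2 at 20.7, 34.9, 19.7, 21.4 and 25.2 CPM in EAE and 11.04, 14.9, 11.8, 10.6 and 30.9 CPM in healthy ones. For Prdx5 EAE 4 and EAE 5 were below every healthy library and the other EAE libraries above every one. For Sod2 healthy 5 was above all EAE libraries except EAE 2, and the other healthy libraries were below all EAE libraries.

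In NeuN-negative nuclei, 10 of the 36 genes were higher in EAE than in healthy mice and 3 were lower by the same test, while over all 17604 genes tested 15.1% were called higher and 12.6% lower. The genes called higher were Hmox1, Gpx3, Txn1, Gpx1, Mgst1, Gpx8, Sod2, Prdx5, Txnip and Slc7a11, and the lower ones Gstp1, Gss and Gstm5. The median log2 fold change of the 36 was 0.38, against 0.05 over all genes tested. EAE and healthy libraries did not overlap for Hmox1, Gpx1 and Gpx3 among the higher genes and for Gss and Gstp1 among the lower ones; over all genes tested 7.04% were higher and 11.6% lower with no overlap. Without the NeuN-negative libraries numbered EAE 2, EAE 4 and healthy 3, 12 genes were higher and 3 lower, against 17.4% and 12.3% of all genes tested. Those libraries were picked by the mitochondrial share of the NeuN-positive library of that number.

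**Figure D4:**
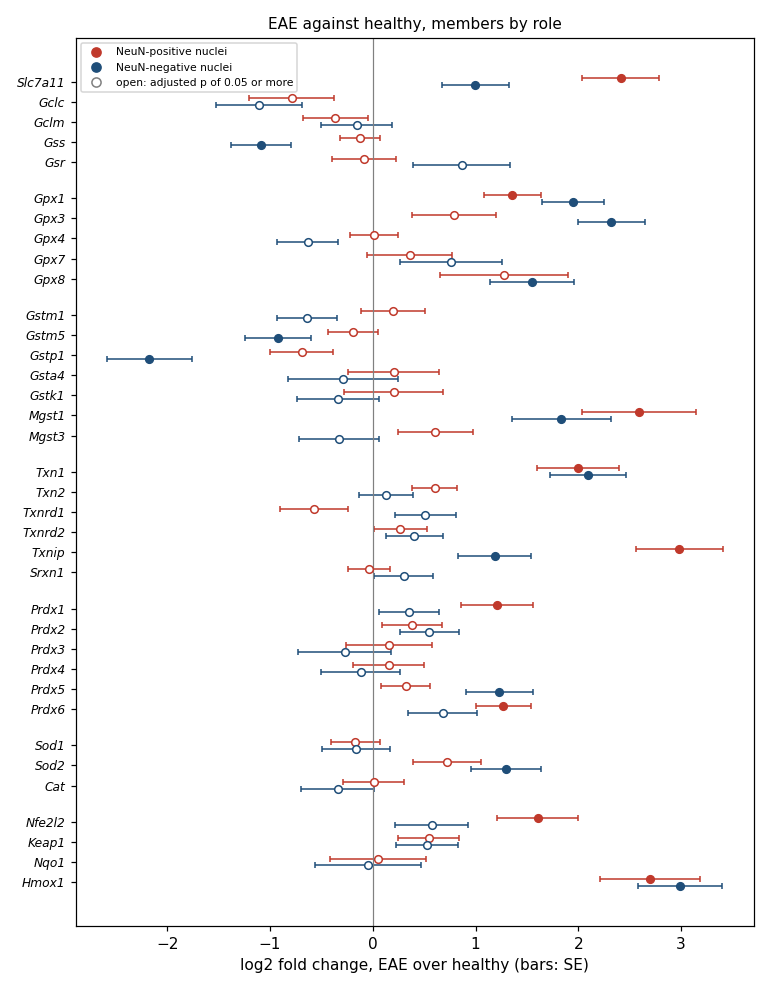
Log2 fold change of EAE over healthy for each of the 36 genes, with its standard error, in NeuN-positive and in NeuN-negative nuclei, ordered by functional group; filled points had an edgeR adjusted p under 0.05. In NeuN-positive nuclei 9 genes were called and all were higher, and in NeuN-negative nuclei 10 were higher and Gstp1, Gss and Gstm5 lower.

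Hmox1 was at 31.3, 11.7, 36.9, 13.2 and 35.2 CPM in EAE NeuN-negative libraries, against 2.13, 2.72, 4.24, 4.09 and 5.696 CPM in healthy ones. The groups did not overlap, and the log2 fold change of 2.99 ± 0.41 (edgeR adjusted p = 8.33e-05), or 7.93-fold, was the largest of the 36 genes in these nuclei. Nfe2l2 was at 60.4, 23.6, 72.4, 20.02 and 54.4 CPM in EAE and 44.1, 43.2, 20.3, 21.04 and 54.1 CPM in healthy NeuN-negative libraries. The groups overlapped over most of their range, with EAE 2 and EAE 4 and healthy 3 and healthy 4 the low libraries. Its log2 fold change was 0.57 ± 0.35 (edgeR adjusted p = 0.231). Keap1 was at 89.7, 76.9, 94.3, 37.4 and 80.3 CPM in EAE and 56.4, 58.3, 74.98, 73.2 and 43.9 CPM in healthy libraries, and Nqo1 was at 5.07, 3.15, 4.24, 7.21 and 3.005 CPM in EAE and 6.04, 3.37, 8.36, 3.87 and 6.31 CPM in healthy ones. Both overlapped between the groups, with log2 fold changes of 0.53 ± 0.30 for Keap1 (edgeR adjusted p = 0.198) and −0.05 ± 0.52 for Nqo1 (adjusted p = 0.954). Without EAE 2, EAE 4 and healthy 3, Nfe2l2 and Keap1 were called higher, at 0.87 (adjusted p = 0.0439) and 0.85 (adjusted p = 0.01998).

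Genes of glutathione synthesis went both ways in NeuN-negative nuclei. Slc7a11 was at 161, 70.9, 60.04, 56.8 and 54.4 CPM in EAE and 56.4, 34.6, 53.6, 50.3 and 39.4 CPM in healthy NeuN-negative libraries. EAE 1 was far above all others, and EAE 5 lay within the healthy range. The log2 fold change of 1.0 ± 0.33 (edgeR adjusted p = 0.0336) dropped to 0.61 without EAE 1 (adjusted p = 0.137), and the call was also lost without healthy 1, 2, 4 or 5 (adjusted p = 0.07704 to 0.135). Gss (chr2:155563181-155592810, GRCm38), which joins glycine to complete glutathione, was at 39.2, 42.9, 38.3, 31.03 and 28.6 CPM in EAE NeuN-negative libraries, against 88.6, 100.2, 106, 101 and 58.7 CPM in healthy ones. Every EAE library was below every healthy one, and the log2 fold change was −1.09 ± 0.29 (edgeR adjusted p = 0.01195). Gss overlaps Acss2 and 2 antisense genes in the annotation.

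Gclc was at 16.9, 6.62, 32.6, 12.8 and 15.5 CPM in EAE and 48.2, 54.6, 13.6, 24.3 and 78.9 CPM in healthy NeuN-negative libraries, and Gclm at 20.6, 13.9, 20.8, 14.4 and 15.2 CPM in EAE and 20.2, 20.7, 11.4, 14.6 and 48.3 CPM in healthy ones. EAE libraries of Gclc were mostly the lower ones, with healthy 3 and healthy 4 in their range, and those of Gclm lay within the healthy range. The log2 fold change of Gclc was −1.11 ± 0.42 (edgeR adjusted p = 0.0603) and that of Gclm −0.16 ± 0.35 (adjusted p = 0.756). Gclc was called lower without EAE 3 (−1.51, adjusted p = 0.0165), healthy 3 (−1.36, adjusted p = 0.0183) or healthy 4 (−1.35, adjusted p = 0.04896). Gsr, at 0.86 ± 0.47 on the log2 scale, was not called, with healthy 3 far below the other healthy libraries at 1.67 CPM, and was called higher without EAE 2, EAE 4 and healthy 3, at 0.87 (adjusted p = 0.02595).

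The peroxidases held 3 higher genes of 5. Gpx1 was at 169, 58.3, 104, 69.9 and 98.3 CPM in EAE NeuN-negative libraries, against 26.9, 24.1, 28.3, 28.3 and 43.9 CPM in healthy ones, and Gpx3 was at 100.4, 31.2, 49.7, 40.8 and 46.6 CPM in EAE, against 9.296, 9.74, 14.4, 16.6 and 12.1 CPM in healthy ones. Neither overlapped between the groups, and EAE 1 was the highest library for both. In log2 units the fold changes were 1.94 ± 0.30 for Gpx1 (edgeR adjusted p = 0.000243) and 2.32 ± 0.33 for Gpx3 (adjusted p = 0.000113). Gpx8 was at 16.03, 20.2, 9.38, 16.8 and 9.01 CPM in EAE and 6.45, 4.83, 3.34, 5.23 and 10.2 CPM in healthy NeuN-negative libraries. EAE 3 and EAE 5 were below healthy 5, and the log2 fold change was 1.55 ± 0.41 (edgeR adjusted p = 0.0115); without EAE 2, EAE 4 and healthy 3 it was 1.0 and not called (adjusted p = 0.0581). Gpx4 at −0.64 and Gpx7 at 0.76 were not called.

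Among the transferases Gstp1 (chr19:4035407-4037985, GRCm38) was at 15.7, 2.52, 24.2, 7.01 and 16.3 CPM in EAE NeuN-negative libraries, against 96.7, 84.6, 42.96, 65.5 and 58.7 CPM in healthy ones. All EAE libraries were below all healthy ones, with EAE 2 the lowest, and the log2 fold change was −2.17 ± 0.41 (edgeR adjusted p = 0.00139). Gstm5 was at 27.7, 18.9, 16.1, 13.6 and 15.7 CPM in EAE and 34.8, 43.4, 22.5, 34.7 and 76.01 CPM in healthy NeuN-negative libraries. EAE 1 was above healthy 3, and healthy 5 stood highest. The log2 fold change of −0.92 ± 0.32 (edgeR adjusted p = 0.0407) lost its call without EAE 3, 4 or 5 or healthy 1, 2 or 5 (adjusted p = 0.0501 to 0.0953). Mgst1 was at 34.7, 9.77, 18.5, 17.4 and 23.8 CPM in EAE and 5.99, 4.51, 1.67, 5.35 and 17.4 CPM in healthy libraries. Healthy 5 reached into the EAE range and the other healthy libraries did not, and the log2 fold change was 1.84 ± 0.48 (edgeR adjusted p = 0.0106). Gstm1, Gsta4, Gstk1 and Mgst3 lay between −0.64 and −0.29 and were not called, except that Gstm1 was called lower without EAE 1, at −0.95 (adjusted p = 0.0321).

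Txn1 was at 60.6, 42.9, 46.7, 18.4 and 45.1 CPM in EAE NeuN-negative libraries, against 6.65, 9.09, 8.87, 11.9 and 23.2 CPM in healthy ones. EAE 4 was below healthy 5, and the others did not overlap. Its log2 fold change was 2.09 ± 0.37 (edgeR adjusted p = 0.000724). Txnip was at 176, 67.5, 145, 52.04 and 88.7 CPM in EAE and 77.3, 62.7, 23.7, 41.5 and 67.8 CPM in healthy NeuN-negative libraries. EAE 1 and EAE 3 stood highest, and the other EAE libraries lay in or slightly above the healthy range. Its log2 fold change of 1.18 ± 0.36 (edgeR adjusted p = 0.0218) lost its call without EAE 1 or healthy 2, 3 or 4 (adjusted p = 0.0573 to 0.0984).

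Txnrd1 was at 45.95, 28.7, 52.8, 27.4 and 25.4 CPM in EAE and 29.2, 32.5, 16.5, 27.9 and 45.1 CPM in healthy NeuN-negative libraries, and Srxn1 at 40.96, 18.6, 41.4, 24.8 and 34.9 CPM in EAE and 22.5, 26.4, 24.3, 32.8 and 48.9 CPM in healthy ones. Both overlapped, and neither was called, at 0.51 for Txnrd1 (edgeR adjusted p = 0.198) and 0.30 for Srxn1 (adjusted p = 0.455). Prdx5, a peroxiredoxin of mitochondria, peroxisomes and cytosol, was at 113, 42.2, 151, 73.7 and 71.9 CPM in EAE and 33.7, 37.9, 34.98, 48.9 and 70.6 CPM in healthy NeuN-negative libraries. EAE 2 lay within the healthy range and the other EAE libraries above it. In log2 units the fold change was 1.23 ± 0.32 (edgeR adjusted p = 0.0112), with the call lost without healthy 1 (adjusted p = 0.0613) or healthy 2 (adjusted p = 0.0601). Sod2 was at 38.9, 51.1, 32.4, 40.4 and 31.9 CPM in EAE and 12.1, 13.4, 14.7, 20.5 and 37.1 CPM in healthy NeuN-negative libraries. Healthy 5 lay among the EAE libraries and the other healthy libraries below them, and the log2 fold change was 1.29 ± 0.34 (edgeR adjusted p = 0.0113). That call was lost without healthy 1 (adjusted p = 0.0537), healthy 2 (adjusted p = 0.0555) or EAE 2, EAE 4 and healthy 3 together (adjusted p = 0.0706). Prdx6 was at 477, 196, 219, 152 and 203 CPM in EAE and 215, 178, 154, 162 and 198 CPM in healthy libraries, and Prdx1 at 66.6, 48.9, 35.5, 35.4 and 47.7 CPM in EAE and 37.6, 44.1, 30.2, 35.3 and 75.4 CPM in healthy ones. Both overlapped between the groups, with EAE 1 far above the other libraries for Prdx6 and healthy 5 the highest for Prdx1. Neither was called in these nuclei, at 0.68 ± 0.34 for Prdx6 (edgeR adjusted p = 0.135) and 0.35 ± 0.29 for Prdx1 (adjusted p = 0.383), although Prdx6 was called higher without EAE 2, EAE 4 and healthy 3, at 0.90 (adjusted p = 0.0404).

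Gpx1, Hmox1, Mgst1, Slc7a11, Txn1 and Txnip were called higher in both sorts. These 6 were 66.7% of the 9 genes called higher in NeuN-positive nuclei and 60.0% of the 10 called higher in NeuN-negative nuclei. Over all genes, 764 were called higher in both sorts, which is 70.0% of those called in NeuN-positive and 28.8% of those called in NeuN-negative nuclei.

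Whether the EAE effect differed between the sorts was tested as the interaction of disease and sort over all 20 libraries. That fit has its own gene filter and normalization, so its values are not exact differences of the fold changes given above. By edgeR, 0 of the 36 genes were called higher or lower in this difference, while 9 (25.0%) had an unadjusted p under 0.05, against 18.2% of all genes tested, and 1.74% of the 20444 genes tested were called higher and 0.822% lower. By the DESeq2 Wald test 1 gene was higher (Txnip) and 1 lower (Gpx3), with 3.33% and 4.40% of all genes tested. By limma voom with quality weights 6 were higher and 5 lower, with 15.0% and 9.12% of all genes. With the replicate number as a block 3 were higher (Slc7a11, Gss and Txnip) and 1 lower (Txnrd1), with 9.74% and 2.45% of all genes. Txnip came closest: its log2 fold change in NeuN-positive nuclei exceeded that in NeuN-negative nuclei by 1.91 ± 0.57 (edgeR adjusted p = 0.0642). Gss followed at 1.12 ± 0.34 (adjusted p = 0.0721), then Slc7a11 at 1.52 ± 0.49 (adjusted p = 0.0853), Gstp1 at 1.57 ± 0.55 (adjusted p = 0.119) and, in the other direction, Gpx3 at −1.43 ± 0.53 (adjusted p = 0.142). Several of these were called when a NeuN-negative library was left out: Txnip without EAE 1 (2.21, adjusted p = 0.0412) or EAE 3 (2.07, adjusted p = 0.04096), Slc7a11 without EAE 1 (1.99, adjusted p = 0.0224), Gss without healthy 5 (1.28, adjusted p = 0.0489) and Gstp1 without EAE 3 (1.93, adjusted p = 0.04205). Without EAE 2, EAE 4 and healthy 3 of both sorts, Gpx3 was called, at −1.82 (adjusted p = 0.0413). For Nfe2l2, called in NeuN-positive and not in NeuN-negative nuclei, the difference was 1.15 ± 0.56 and was not called (adjusted p = 0.2695).

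The antioxidant response element to which NRF2 binds with small MAF proteins contains the core TGACNNNGC, where N is any base. This core was searched on both strands of the RefSeq promoter windows of GRCm38.p6, from 250 bases before to 50 after each gene start. Of the 36 genes, 31 were in the table, and 8 of these 31 (25.8%) held the core in a window: Nfe2l2, Srxn1, Gstm5, Gclm, Prdx1, Mgst1, Txnrd1 and Sod1. Over all 27025 genes of the table the share was 14%. Of the 9 genes called higher in NeuN-positive nuclei 7 were in the table and 3 of them held it (Nfe2l2, Prdx1 and Mgst1), and of the 10 called higher in NeuN-negative nuclei 9 were in the table and 1 held it (Mgst1). Shown here are 2 genes called higher in NeuN-positive nuclei, Nfe2l2 and Prdx1, and 2 textbook NRF2 targets that were called in neither EAE comparison, Gclm and Txnrd1, each on the strand that carries the core, with the core in capitals.
Nfe2l2 (chr2:75704875-75704913, minus strand): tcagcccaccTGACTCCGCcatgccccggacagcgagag
Prdx1 (chr4:116685446-116685494, minus strand): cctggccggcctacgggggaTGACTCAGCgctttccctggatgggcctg
Gclm (chr3:122245403-122245451, minus strand): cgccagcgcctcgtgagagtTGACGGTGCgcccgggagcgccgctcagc
Txnrd1 (chr10:82859094-82859142, minus strand): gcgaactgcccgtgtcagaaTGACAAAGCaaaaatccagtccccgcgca
The Prdx1 core also contains TGACTCA, the site of the AP-1 family, and the other cores shown do not. A match to these letters describes the sequence only, and these windows do not cover distal elements.

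Between the sorts, most of the called genes were at a lower level in NeuN-positive than in NeuN-negative nuclei. In healthy mice 3 of the 36 were called higher in NeuN-positive nuclei (Gpx3, Srxn1 and Prdx5) and 16 lower, while over all 17134 genes tested 22.8% were called higher and 23.0% lower. The replicate numbers pair the sorts in healthy mice, and with the replicate number as a block 8 were higher and 18 lower, with 33.2% and 32.5% of all genes tested, the added higher ones being Gclc, Txnrd1, Txnrd2, Prdx2 and Keap1. The values that follow are without the block. The largest differences were those of Txnip at −3.40 ± 0.35 (edgeR adjusted p = 9.25e-06), Slc7a11 at −3.27 ± 0.33 (adjusted p = 7.45e-06) and Nfe2l2 at −2.64 ± 0.31 (adjusted p = 2.57e-05). Healthy NeuN-positive libraries held 5.61 ± 1.22 CPM of Nfe2l2 (SD, n = 5) and healthy NeuN-negative libraries 36.6 ± 15.1 CPM, with no overlap. Of the transferases, 5 of 7 were lower in NeuN-positive nuclei: Gstk1 at −2.31, Mgst1 at −2.23, Gstm1 at −1.73, Gstp1 at −1.35 and Gstm5 at −0.93 on the log2 scale. The others called lower were Prdx1 (−2.07), Gpx8 (−2.04), Prdx6 (−1.21), Cat (−1.06), Prdx4 (−1.02), Nqo1 (−0.95), Gss (−0.79) and Gpx4 (−0.49). Calls of Gpx4 and Prdx4 were lost without healthy NeuN-positive 1, that of Cat without healthy NeuN-positive 2 or 4, and that of Nqo1 without any healthy library except NeuN-negative 2 or 4, with adjusted p of 0.05101 to 0.0759. Without healthy NeuN-negative 5, Mgst3, Txnrd1 and Prdx2 were called higher as well, 6 genes in all, against 22.6% of all genes tested. Txnrd1 was also called higher without healthy NeuN-positive 3 (edgeR adjusted p = 0.01002), and Txnrd2 without healthy NeuN-positive 5 (adjusted p = 0.0294).

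Srxn1 was higher in NeuN-positive nuclei in both EAE and healthy mice. It was at 69.02 ± 6.04 CPM in healthy NeuN-positive and 30.99 ± 10.8 CPM in healthy NeuN-negative libraries (SD, n = 5 each), with no overlap and a log2 fold change of 1.19 ± 0.22 (edgeR adjusted p = 0.000735). Keap1 was at 82.03 ± 31.7 CPM in healthy NeuN-positive and 61.4 ± 12.9 CPM in healthy NeuN-negative libraries, with a log2 fold change of 0.44 ± 0.29 (adjusted p = 0.241).

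In EAE mice 2 of the 36 genes were called higher in NeuN-positive than in NeuN-negative nuclei, Mgst3 at 1.36 ± 0.40 (edgeR adjusted p = 0.0155) and Srxn1 at 0.90 ± 0.30 (adjusted p = 0.0312), and 9 were called lower; over all 17982 genes tested 15.5% were called higher and 14.8% lower. The lower ones were Gpx8 (−2.30), Slc7a11 (−1.84), Gstk1 (−1.71), Nfe2l2 (−1.62), Txnip (−1.61), Mgst1 (−1.47), Prdx1 (−1.21), Hmox1 (−1.20) and Gpx1 (−0.98). Gpx8, Slc7a11, Gstk1, Nfe2l2, Txnip, Mgst1 and Prdx1 were called lower in both EAE and healthy mice, which is 77.8% of those called lower in EAE and 43.8% of those called lower in healthy mice, against 63.5% and 42.9% over all genes tested. Without EAE NeuN-positive 1 or 5, 4 genes were called lower in EAE mice, and without EAE NeuN-positive 4 or EAE NeuN-negative 1 or 5, 5 were. Over all genes tested, 8.98 to 12.7% were called lower when 1 of these libraries was left out. Calls of Gpx1, Gstk1, Mgst1, Hmox1 and Srxn1 were each lost when any of at least 5 single libraries was left out, with adjusted p of 0.0534 to 0.1297, and that of Prdx1 without EAE NeuN-positive 1 or 5. Calls were gained by Gclc, as higher, without EAE NeuN-negative 3, by Gstm1, as lower, without EAE NeuN-negative 2 or EAE NeuN-positive 2, and by Sod2, as lower, without EAE NeuN-positive 2, with adjusted p of 0.0327 to 0.0495.

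**Figure D5:**
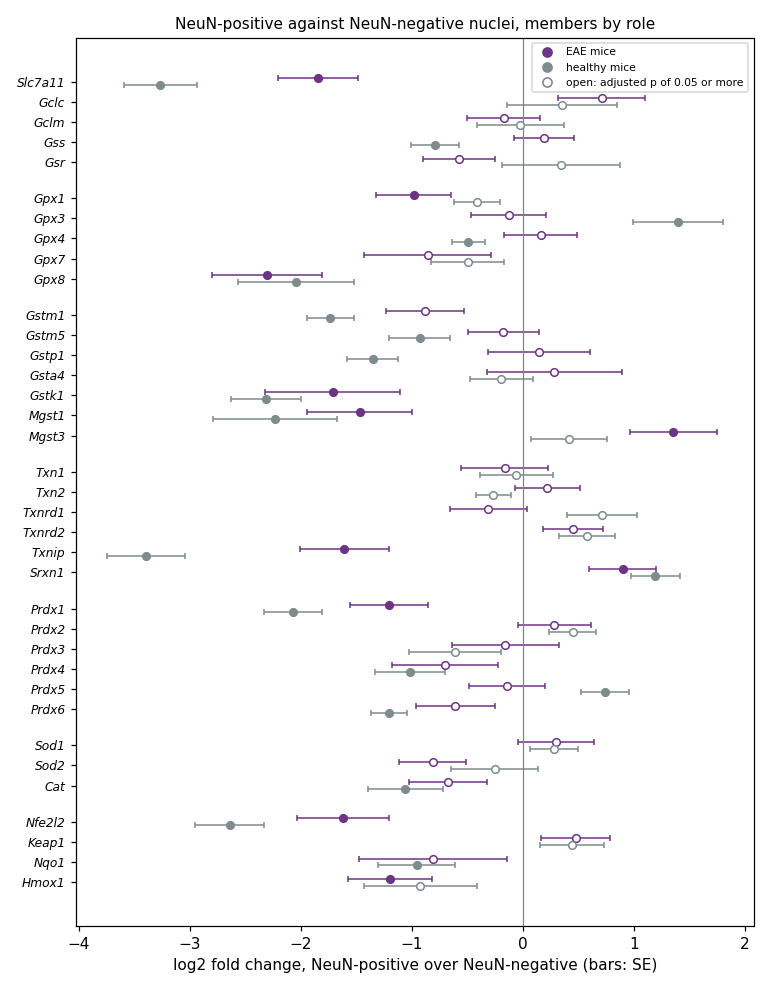
Log2 fold change of NeuN-positive over NeuN-negative nuclei for each of the 36 genes, with its standard error, in EAE and in healthy mice, ordered by functional group; filled points had an edgeR adjusted p under 0.05. Txnip, Slc7a11 and Nfe2l2 stood at −1.61, −1.84 and −1.62 in EAE mice and at −3.40, −3.27 and −2.64 in healthy mice, where they were the genes furthest below 0.

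Levels of different genes were compared per kilobase of annotated exons, as means over 5 libraries. In EAE NeuN-positive nuclei Prdx5 (40.1 CPM per kilobase), Txn1 (39.1), Gpx1 (36.9) and Prdx6 (35.9) were the highest of the 36, and in healthy NeuN-positive nuclei Prdx5 (34.4), Gpx4 (27.3) and Srxn1 (24.5) were. Txn1 was at 10.6 and Gpx1 at 15.4 CPM per kilobase in healthy NeuN-positive nuclei. In EAE NeuN-negative nuclei Gpx1 (69.3 CPM per kilobase), Prdx6 (51.9), Prdx5 (42.2) and Txn1 (40.7) led, and in healthy NeuN-negative nuclei Gstm1 (57.99), Gstp1 (45.02), Gpx4 (39.5) and Prdx6 (37.8). Slc7a11 (0.346), Mgst1 (0.703) and Hmox1 (1.104) were the lowest in healthy NeuN-positive nuclei. In EAE NeuN-positive nuclei these 3 were at 1.72, 3.97 and 6.77 CPM per kilobase.

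Of 91 other genes of glutathione, thioredoxin, NADPH, iron and NRF2 biology, 82 were tested in NeuN-positive nuclei. Over all genes tested there, 6.55% were called higher in EAE and 3.68% lower. Of the 82, 7 were higher and 2 lower, with a median log2 fold change of 0.05. The 4 higher genes with the smallest p were Ftl1, the ferritin light chain, at 2.04 ± 0.35 (edgeR adjusted p = 0.00207), the methionine sulfoxide reductase Msrb1 at 1.52 ± 0.28 (adjusted p = 0.00351), the glutathione-cleaving enzyme Ggt5 at 2.01 ± 0.45 (adjusted p = 0.0133) and malic enzyme Me1, a source of NADPH, at 1.04 ± 0.25 (adjusted p = 0.01703). The lower ones were carbonyl reductase Cbr1 at −1.22 ± 0.33 (adjusted p = 0.0305) and the glycine transporter Slc6a9 at −1.85 ± 0.55 (adjusted p = 0.0454). Over all genes tested in NeuN-negative nuclei, 15.1% were called higher in EAE and 12.6% lower. Of the other antioxidant genes 84 were tested there, and 11 were higher and 11 lower, with a median of −0.11. The higher genes with the smallest p were Maff at 3.56 ± 0.51 (edgeR adjusted p = 0.000128) and Mafk at 1.44 ± 0.28 (adjusted p = 0.001702), small MAF proteins that pair with NRF2 and with its competitor BACH1, then Ftl1 at 1.44 ± 0.28 (adjusted p = 0.00176) and Msrb1 at 1.35 ± 0.30 (adjusted p = 0.00393). The lower ones were Cbs, which starts the path from homocysteine to cysteine, at −2.85 ± 0.36 (adjusted p = 4.48e-05), the transferase Gstm7 at −2.29 ± 0.36 (adjusted p = 0.000313), Slc6a9 at −2.67 ± 0.52 (adjusted p = 0.00158) and the glutathione-cycle enzyme Oplah at −1.16 ± 0.28 (adjusted p = 0.00628). In the difference of the EAE effect 86 were tested and 1 was called, Gstm7, at 2.25 ± 0.48 (edgeR adjusted p = 0.0166). In the separate fits of each sort, Gstm7 was at −0.14 in NeuN-positive and −2.29 in NeuN-negative nuclei. Over all genes tested, 1.74% were called higher and 0.822% lower in this difference.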

How the data were processed

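The authors deposited 1 table of raw counts, by Ensembl gene and library, without normalization, as its whole numbers with differing totals show. Per the labels' protocols, RNA was extracted with a Qiagen kit, and an Illumina TruSeq kit with poly A selection gave the libraries. STAR 2.4 and DESeq2 are named as tools and GRCm39 and mm10 as genome builds, with no role given, per the submitters' processing notes; for the counting tool, annotation and strand setting, the sources used here give nothing. Gene positions, exon lengths and overlaps come from GENCODE M21 of GRCm38, matched by gene identifier, and promoters from RefSeq. The 36 genes and the lists of other antioxidant genes and markers were chosen with earlier results of these data known.

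Groups were taken from titles. Of the 43629 rows, 1167 carried no symbol and stayed in the totals. The 40 pairs of libraries within groups held 0 identical pairs, and their chi-square, summed over genes of 20 or more counts, was 11.1 to 392.8 per gene, so each library counted as 1 sample. Comparisons used the 10 libraries of their groups, and the interaction all 20, in edgeR 4.0.16 under R 4.3.3 (group-wise filterByExpr, TMM, robust quasi-likelihood test, Benjamini-Hochberg over all genes tested, called under 0.05), after a check on simulated counts. Log2 fold changes carry standard errors; CPM uses TMM over 20 libraries. Values in every library are given for genes called in either EAE comparison and for Nfe2l2, Keap1, Hmox1, Nqo1, Slc7a11, Gclc, Gclm, Txnrd1 and Srxn1; other antioxidant genes are named up to 4 higher and 4 lower per EAE comparison by smallest p. A few additional genes are named where leaving out libraries changed their call, chosen after their values were seen. Alternatives were DESeq2 1.42.0 size factors, its Wald test, limma 3.58.1 voom with quality weights, no count filter, at least 1 CPM in 5 libraries, a replicate block, 1 fit over 20 libraries, each library left out, and, added after seeing the data, omission, in both sorts, of the 3 library numbers with over 2% mitochondrial counts in the NeuN-positive library.

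Titles number libraries 1 to 5 in each group. Deviations from group means of same-numbered NeuN-positive and NeuN-negative libraries correlated at 0.235 to 0.665 in healthy mice, all 5 over the limit of 0.1, so the numbers pair the sorts there. All values come from the fit without the block unless the block is named.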

Additional observations from a re-analysis of the deposited data

Results flagged for a closer look

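Within each group of 5 libraries, the highest or lowest value of each of the 36 genes was compared with its nearest neighbour by Dixon's ratio, with a critical value of 0.71. Of these sets 14 were past it, and in all 14 it was the highest library that stood apart. A share of about 1 in 20 by chance, or 7.2 sets, holds for normal and independent values. CPM was used without logs and cannot fall below 0, and the sets share the same libraries. The 14 can therefore not be weighed against 7.2. Library 2 of the EAE NeuN-positive nuclei accounted for 6 of them: Txn1 at 92.7 CPM, Gpx1 at 92.0 CPM, Prdx2 at 127 CPM, Mgst3 at 58.9 CPM, Prdx1 at 44.8 CPM and Gsta4 at 28.6 CPM. That library also held the highest monocyte and macrophage and the highest oligodendrocyte marker sums of the NeuN-positive libraries, and over 2% mitochondrial counts. Library 1 of the EAE NeuN-negative nuclei stood apart for Slc7a11 at 161 CPM, Gpx3 at 100.4 CPM and Prdx6 at 477 CPM. Library 5 of the healthy NeuN-negative nuclei stood apart for Gclm at 48.3 CPM, Gpx1 at 43.9 CPM and Mgst1 at 17.4 CPM. In healthy NeuN-positive nuclei Gpx1 was high in library 4, at 26.0 CPM, and Sod2 in library 5, at 30.9 CPM. What part cell makeup or RNA quality has in these libraries was not tested.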

How the results depend on the processing

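Across the values of single genes under the alternatives, 3358 kept their side of the threshold, 105 lost the call, 99 gained it and 2 reversed. A reversal is a change of sign with a call in the main fit or in the alternative. A change of sign with a call in neither counted as kept. Both reversals were of Txn1 under limma voom, to −1.02 (adjusted p = 0.0413) in the difference of the EAE effect, against 0.03 by edgeR, and to 0.49 (adjusted p = 0.0344) between the healthy sorts, against −0.06; the cause was not tested. Gpx1, Hmox1, Mgst1, Prdx6, Slc7a11, Txn1 and Txnip in NeuN-positive and Gpx1, Gpx3, Gss, Gstp1, Hmox1, Mgst1 and Txn1 in NeuN-negative nuclei were called in EAE under each of the 18 alternatives run.

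Leaving out each library in turn gave these ranges of higher and lower genes, with the ranges of all genes tested in percent. EAE in NeuN-positive nuclei had 7 to 10 and 0 to 0 (9 and 0 with all), against 3.98 to 10.1% and 1.06 to 8.64%. EAE in NeuN-negative nuclei had 6 to 10 and 2 to 4 (10 and 3), against 9.51 to 21.5% and 7.52 to 15.3%. The 6 came without healthy NeuN-negative 2, as did the 9.51%. The difference of the EAE effect had 0 to 2 and 0 to 0, against 0.291 to 3.52% and 0.0966 to 1.64%. The healthy sorts had 3 to 6 and 13 to 16 (3 and 16), against 20 to 25% and 19.8 to 24.7%. The EAE sorts had 1 to 3 and 4 to 10 (2 and 9), against 11.4 to 16.9% and 8.98 to 18.2%. With limma voom, EAE in NeuN-positive nuclei had 14 higher and 4 lower genes (22.9% and 23.3% of all genes tested), EAE in NeuN-negative nuclei 6 lower (25.9%), the difference 6 higher and 5 lower (15.0% and 9.12%), the healthy sorts 9 higher (36.2%) and the EAE sorts 14 lower (25.6%). Without a count filter, EAE in NeuN-negative nuclei had 5 higher genes (14.9% of all genes) and the EAE sorts 1 higher and 5 lower (8.03% and 10.6%). With all 20 libraries in the fit EAE in NeuN-negative nuclei had 6 lower (18.5%). The DESeq2 Wald test gave the difference 1 higher and 1 lower (3.33% and 4.4%). Without EAE 2, EAE 4 and healthy 3, 1 gene was lower for EAE in NeuN-positive nuclei (1.83%) and 1 in the difference (1.82%). The causes of these shifts were not tested.

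With the replicate number as a block, the healthy sorts had 8 higher and 18 lower genes (33.2% and 32.5% of all genes). In EAE mice same-numbered libraries of the sorts correlated at 0.0876 to 0.342, with 4 of 5 pairs over the limit of 0.1. There 9 of 10 libraries were closest to their own number, against 8 of 10 in healthy mice. Whether the numbers pair the sorts in EAE mice is therefore not settled, and fits without a block ignore such a pairing. EAE and healthy libraries of a number correlated at −0.316 to 0.247 and were not taken as pairs. A block gave 7 higher and 0 lower genes for EAE in NeuN-positive nuclei (4.43% and 2.46% of all genes). For EAE in NeuN-negative nuclei it gave 9 and 2 (10.7% and 10.2%). Both of these fits block EAE with healthy libraries of a number, which were not taken as pairs. The EAE sorts had 2 and 11 with a block (20% and 17.8%). The difference had 3 (Slc7a11, Gss, Txnip) and 1 (Txnrd1), with 9.74% and 2.45% of all genes. DESeq2 size factors moved the median log2 value of all genes in the difference by −0.25, with 236 higher and 236 lower genes called, against 356 higher and 168 lower with TMM. Depth limits genes with under 10 counts in some library: Hmox1 (3 counts) and Gpx8 (6) in healthy NeuN-positive, Gstk1 (4) and Nqo1 (9) in EAE NeuN-positive, and Gsta4 (3), Gstp1 (8) and Gpx7 (9) in EAE NeuN-negative nuclei.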
